A study of Mus musculus with 8 samples.

Results

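The sites described here are places in mouse liver chromatin where C/EBPα was called as strongly bound in both libraries from mice given extra C/EBPα and in none of 6 other liver libraries. Peaks of all 8 lists that overlapped by 1 bp or more were joined into 113353 sites. Of these, 12649 sites (11.2%) were called in both AAV_Cebpa lists and in no other list. The strong overexpression-only sites are the 2816 of them (2.48% of all sites) whose peak also reached a percentile of at least 50 in each AAV_Cebpa list. The percentile is the rank of a peak's signal within its own list, and 100 is the strongest peak. The percentiles and the pattern of presence chose these sites, so both are given as descriptions and carry no test.

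The study mapped C/EBPα by ChIP-seq, which sequences the DNA that an antibody to the factor pulls down from chromatin, in livers of mice aged 8 to 10 weeks, in 4 groups of 2 libraries, after a fast of 4 hours. In the first experiment, Trib1 flox/flox mice were injected with 1.5e11 gc of AAV_Null, an empty adeno-associated virus vector (group Trib1_WT), or of AAV_Cre, a vector for Cre recombinase (group Trib1_LSKO). For the second experiment, C57B/6 WT mice were injected with 1e12 gc of AAV_Null or of AAV_Cebpa, a vector coding for C/EBPα. All groups thus received a vector, and the dose differed between the experiments but not within them. The strain field reads C57B/6 for all 8 libraries. The sources used here do not state the promoters of the vectors, the sex of the mice or whether replicates were separate animals, so the spread between replicates may be technical.

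C/EBPα is a basic leucine zipper transcription factor that binds DNA as a dimer and is abundant in hepatocytes, where it takes part in the control of glucose and lipid metabolism. Tribbles-1, the pseudokinase encoded by Trib1, is known to bring C/EBPα to an ubiquitin ligase for degradation. A factor raised above its usual amount can occupy DNA where it was not detected before, and such places are the subject here. Positions refer to mouse build mm9, counted from 1. Neither sequence nor gene positions of mm9 were used here, so no site is assigned to a gene and no DNA sequence is shown.

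The lists held 59564 and 80394 peaks in AAV_Cebpa and 46348 to 54691 peaks in the other 6 libraries. The signal values were near-multiples of a step per library, which gives relative depth and the number of sequence tags behind a peak. Depth was 1.85 and 2.27 in the AAV_Cebpa libraries relative to AAV_Null replicate 1, the shallowest, and 1.14 to 1.93 in the remaining 5. The weakest listed peak held 7 to 12 tags, depending on the library.

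The strong overexpression-only sites belonged to the middle and upper part of the AAV_Cebpa lists, and few were among the very strongest peaks. Their percentile in AAV_Cebpa replicate 1 ran from 50.4 through a median of 62.4 to 99.99, with quartiles of 55.3 and 71.9. In replicate 2 it ran from 50.6 through a median of 75.8 to 99.999, with quartiles of 68.9 and 83.2. The higher percentile was in replicate 2 at 2695 of the 2816 sites (95.7%). That list is longer and its library deeper, and the part of either in this offset was not tested. Across the 2816 sites, Pearson's r between the 2 percentiles was 0.79 and Spearman's rho 0.78, as a description over sites that share libraries and were selected on both values.

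**Figure D1:**
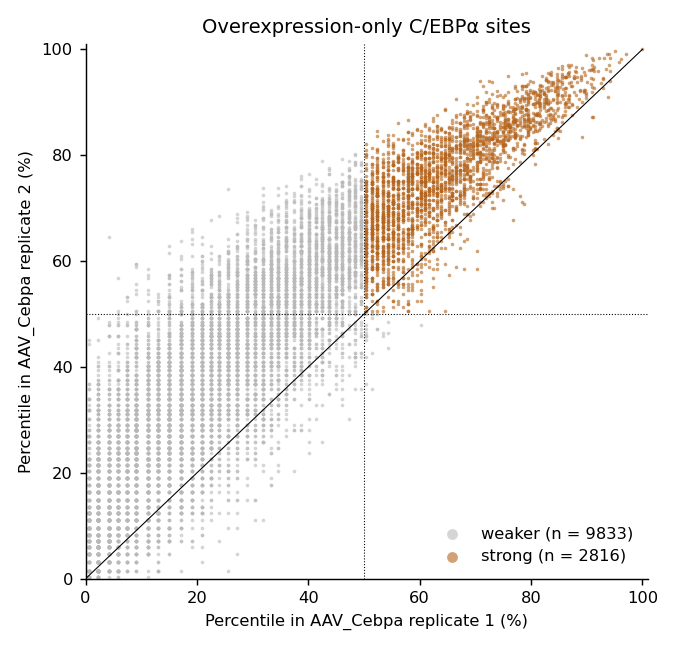
Percentile in AAV_Cebpa replicate 1 (x axis, %) against percentile in replicate 2 (y axis, %) for the 12649 overexpression-only sites, 1 point per site. The dotted lines mark the percentile of 50 that separates the 2816 strong sites from the 9833 weaker ones, and most points lie above the diagonal of equal percentiles.

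Most of the 9833 weaker overexpression-only sites were under the threshold in both replicates. Of them, 7273 reached 50 in neither list, 2537 in replicate 2 alone and 23 in replicate 1 alone. Without AAV_Cebpa replicate 1 the rule would have kept 6683 sites, and without replicate 2 it would have kept 2925. The values around the threshold are close to each other. The 3 sites just inside it, on chromosome 1 (chr1:24024740-24024944, chr1:35368478-35368722 and chr1:42760617-42760836), each had a percentile of 50.4 from 45 tags in replicate 1. The 3 just outside (chr8:95813394-95813595, chr8:120147578-120147796 and chr10:54565430-54565654) each had 49.9 from 61 tags in replicate 2. A difference of a few tags would move such sites across the threshold.

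Every strong overexpression-only site held at least 45 tags in AAV_Cebpa replicate 1 and at least 62 in replicate 2, with medians of 59 and 118. Scaled to the depth of AAV_Null replicate 1, where the weakest listed peak had 8 tags, the smallest of these counts corresponds to 24.4 and 27.3 tags. For Trib1_WT replicate 1 the scaled values were 27.7 and 31.1 tags against a weakest listed peak of 7. Across the remaining 4 libraries the scaled values ran from 28.4 to 52.6 tags, and their lists began at 8 to 11 tags. The percentile threshold of 50 itself sets the smallest tag number, so these values describe the rule and say nothing of why the other lists lack the sites. The part of depth and list length in that absence was not tested, and with every list reduced to the length of the shortest 1541 sites met the rule.

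The stronger the AAV_Cebpa sites, the smaller was the share that no other list held. Sites called in both AAV_Cebpa lists were ordered by the lower of their 2 percentiles. Below 25, 5859 of 12617 sites (46.4%) were absent from the other 6 lists. From 50 to 60 it was 1159 of 5787 (20.0%, 95% Wilson interval 19.0% to 21.1%), and from 80 to 90 it was 258 of 5872 (4.39%, 3.90% to 4.95%). From 90 to 95 it was 32 of 2927 (1.09%), and from 95 upward 4 of 2657 (0.151%, 0.0586% to 0.386%). Sites called in all 8 lists took the opposite course, from 12.8% below 25 to 92.8% from 95 upward. Intervals cover the counting of sites only.

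**Figure D2:**
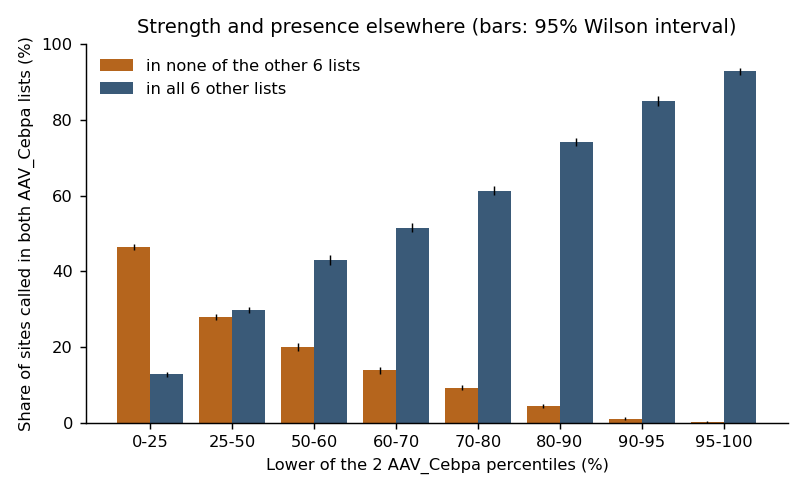
Share (y axis, %) of the sites called in both AAV_Cebpa lists that were in none of the other 6 lists (brown) or in all of them (blue), by the lower of the 2 AAV_Cebpa percentiles (x axis, %), with 95% Wilson intervals. The brown bars run from 46.4% down to 0.151% and the blue bars from 12.8% up to 92.8%.

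The upper part of the AAV_Cebpa lists was thus made up mostly of sites that livers without the C/EBPα vector also held. Of the 29059 sites with a percentile of at least 50 in both lists, 18460 (63.5%) were in all 6 other lists and 2816 (9.69%) in none. Those in 1 to 5 other lists numbered 1100, 1538, 1201, 1893 and 2051 in that order. Median percentiles were 62.4 and 75.8 in the 2 AAV_Cebpa lists for the sites in no other list and 81.0 and 84.7 for those in all 6.

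The strongest site stood far above the rest. At chr7:35905237-35905462 the signal was 134.4 in AAV_Cebpa replicate 1 (326 tags, rank 5 in the list) and 130.7 in replicate 2 (390 tags, rank 2). The next highest mean percentile belonged to a site with ranks of 1733 and 667. The other 6 lists had no peak in the strongest site, but all 6 had one close by: the nearest was 835 to 893 bases away in the 4 Trib1 libraries and 999 and 1006 bases away in AAV_Null. On the side of lower coordinates, a neighbouring site about 1 kb away was called in all 6 and in AAV_Cebpa replicate 2, at percentiles of 73.1 to 93.7. AAV_Cebpa replicate 1 had a peak 501 bases from the strongest site, with rank 1107, where no other list had one. Chromosome 7 also carries Cebpa in the GRCm38.p6 gene table of RefSeq. Whether this site lies in Cebpa, and whether vector DNA was counted there, was not tested.

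The second strongest site shows a different arrangement. At chr13:34373051-34373256 the percentile was 97.0 in AAV_Cebpa replicate 1 (179 tags) and 99.2 in replicate 2 (292 tags). All 6 other lists had a peak between 50 and 79 bases from its edge, at percentiles of 61.9 to 90.2, and neither AAV_Cebpa list had a peak at that neighbouring position. Here the called position differed between the groups, rather than presence against absence over the wider region. Peak midpoints within a list were at least 376 bp apart in AAV_Cebpa replicate 1 and 320 bp in replicate 2. Calls at both positions would have been closer than that, so a missing second call is no sign of absent binding.

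The next strong sites lay farther from peaks of the other lists. On chromosome X, chrX:166413633-166413851 had percentiles of 94.99 and 99.7 (158 and 314 tags), and the nearest peak of the other 6 lists was 2477 bases away, in AAV_Null replicate 2. At chr2:155704674-155704877 they were 96.2 and 98.1 (170 and 266 tags), with a Trib1_LSKO replicate 2 peak 4955 bases away and the other 5 lists at 14379 bases or more. At chr9:54123190-54123398 they were 95.7 and 97.7 (165 and 258 tags). The Trib1_LSKO lists had peaks 9986 and 9987 bases from that site, and the nearest peaks of Trib1_WT and AAV_Null were 22695 to 22723 bases off. At these 3 sites no other list had a peak within 2 kb, and the ranks in the 2 AAV_Cebpa lists were 2946 and 277 on chromosome X, 2251 and 1504 on chromosome 2 and 2529 and 1855 on chromosome 9.

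The remaining 5 of the 10 strongest had mean percentiles of 95.5 to 96.5. At chr12:27040370-27040581 the tags numbered 150 and 291, and at chr9:43934277-43934497 they numbered 148 and 292. The first of this pair had its nearest peak of another list at 5497 bases and the second at 572 bases, in each case beside a site called in all 8 lists. At chr8:33039597-33039812 there were 151 and 272 tags, and at chr5:31953001-31953207 there were 145 and 270. Both had another strong overexpression-only site near them, at 5549 and 4535 bases. The last, chr8:96590950-96591154, had 150 and 248 tags and a site called in all 8 lists 8170 bases away.

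The label of a newly bound place therefore holds to different degrees. A peak of at least 1 of the other 6 lists lay within 200 bases of the site's edge at 165 of the 2816 sites (5.86%, 95% Wilson interval 5.05% to 6.79%) and within 100 bases at 97 (3.44%). At 68 of the 165, all 6 lists had one. A list rarely holds close neighbours: peak midpoints under 400 bp apart numbered 12 to 26 in each of the 8 lists. A list with a peak in a site could thus seldom hold another within 200 bases of it. This spacing largely sets the next counts at 200 bases, which say little of binding. At 152 of the 165 sites (92.1%), neither AAV_Cebpa list held a peak at the neighbouring site, and at 10 sites both did. The weaker overexpression-only sites were alike in this: 217 (2.21%) had a neighbour within 200 bases, and at 194 of those (89.4%) neither AAV_Cebpa list held it. Within 1 kb, where the spacing leaves more room, 690 sites (24.5%) had a neighbour in 1 or more of the 6 lists. Both AAV_Cebpa lists shared such a neighbour at 440 of them (63.8%). Of the weaker sites, 13.8% had a neighbour within 1 kb, shared by both AAV_Cebpa lists in 57.5% of cases. Among the 517 strong sites with percentiles of at least 75, 10.3% had a neighbour within 200 bases. At 2126 sites no other list had a peak within 1 kb. The like shares over all sites were not computed for the 6 lists together. Whether the shares given here are high or low for a site is therefore open.

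The strong sites lay nearer to existing C/EBPα binding than the weaker overexpression-only sites did. In Trib1_WT replicates 1 and 2, 520 (18.5%) and 514 (18.3%) of them had a peak within 1 kb, where 14.8% and 15.1% of all sites that the respective list did not call had one. In Trib1_LSKO it was 531 (18.9%) and 558 (19.8%), against 13.6% and 14.3%. In AAV_Null it was 475 (16.9%) and 495 (17.6%), against 13.4% and 13.8%. Among the 9833 weaker overexpression-only sites the shares were 7.34% to 9.06% over the 6 lists. The strong sites thus stood above both the weaker ones and the background in each of the 6 libraries, and sites were not tested as replicates.

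**Figure D3:**
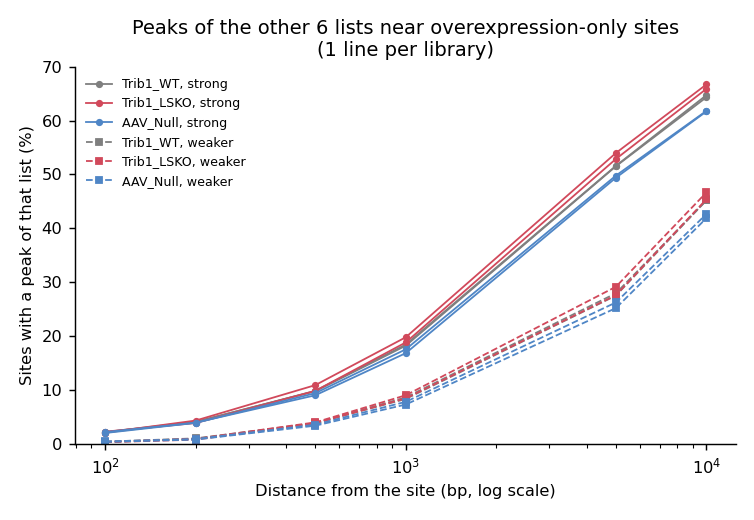
Share (y axis, %) of strong (solid lines, circles) and weaker (dashed lines, squares) overexpression-only sites that have a peak of a given library within the distance on the x axis (bp, log scale), 1 line for each of the 6 other libraries. At 1000 bp the solid lines lie between 16.9% and 19.8% and the dashed lines between 7.34% and 9.06%.

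The share with a peak within 1 kb was 19.3% ± 0.678 (SD, n = 2) for the Trib1_LSKO libraries and 18.4% ± 0.151 (SD, n = 2) for Trib1_WT. The difference was 0.977 percentage points (p = 0.33, two-sided exact permutation test over libraries), and groups of 2 cannot give a smaller p. Both Trib1_LSKO libraries were above both Trib1_WT libraries, and their lists were shorter (50075 and 53072 against 53327 and 54691 peaks). The difference was 1.81 points without Trib1_LSKO replicate 1, 1.86 points within 5 kb, 1.85 points with lists of equal length, 0.546 points with windows of 400 bp and 0.561 points without AAV_Cebpa replicate 1, where the groups overlapped. Since no smaller p was possible, the test cannot tell whether a difference of this size exceeds the spread between libraries. Among all sites that a list did not call, the shares ran the other way. They were 13.6% and 14.3% in Trib1_LSKO against 14.8% and 15.1% in Trib1_WT.

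Nearness to constitutive binding went with strength up to a percentile of about 60, in overexpression-only sites and in sites that some other lists held. From 60 upward there was no steady course. The median distance to the nearest site called in all 8 lists was 10610.5 bases for the strong sites (quartiles 2719 and 37552) and 26034 for the weaker ones (8884 and 72624). Sites called in all 8 lists lay a median of 10346 bases from the nearest other such site, close to the value of the strong sites. In bands of the lower AAV_Cebpa percentile, overexpression-only sites had median distances of 32150 bases below 25, 18015 from 25 to 50, 12974 from 50 to 60, 9150 from 60 to 70, 10302 from 70 to 80 and 8658 from 80 upward. Sites of the same bands that were called in 1 to 5 of the other lists had medians of 24694, 15004, 10945, 9536, 9666 and 9518. In the 3 bands from 60 upward the overexpression-only sites thus differed from the others by -386.5, 636 and -860.5 bases, without a constant direction. Of the strong sites, 278 (9.87%) had a site called in all 8 lists within 1 kb and 296 (10.5%) had none within 100 kb.

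Some strong sites stood in regions where the other lists were empty. The farthest, chr2:138748071-138748274, had percentiles of 63.1 and 72.9 and no peak of the other 6 lists within 566671 bases. The next, chr1:35368478-35368722, is 1 of the sites named above as just inside the threshold, at 351209 bases. A pair on chromosome 13, chr13:92803563-92803777 and chr13:92805509-92805711, had each other as neighbours, 1731 bases apart, and lay 321244 and 319310 bases from the nearest other peak, which was in Trib1_WT replicate 2. The fifth, chr16:5888322-5888529, was the strongest of them, with percentiles of 80.7 and 82.4 (94 and 143 tags) and 308969 bases to the nearest peak.

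Most strong sites had no other strong overexpression-only site within 10 kb, although 2132 (75.7%) had a peak of the other 6 lists there. Another strong overexpression-only site lay within 10 kb at 395 of them (14.0%, 95% Wilson interval 12.8% to 15.4%). The like share was 20.2% for the 9833 weaker sites and 49.2% for the 24318 sites called in all 8 lists. Both sets are more numerous, and the shares were not adjusted for the number of sites. Chained at that distance, they formed 168 pairs, 17 groups of 3 and 2 groups of 4, and 2421 stood alone. With the percentile raised to 75 the share was 4.64% over 517 sites, and without AAV_Cebpa replicate 1 it was 23.4% over 6683.

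The largest groups differed in how many peaks of the other lists lay within their span. At chr12:27032865-27049450, 4 strong sites with mean percentiles of 66.4 to 96.5 spanned 16586 bp, in which each of the 6 other lists had 1 peak and each AAV_Cebpa list 5. At chr9:98482617-98495576, 4 sites spanned 12960 bp, in which the 6 other lists had 1 or 2 peaks and the AAV_Cebpa lists 7 each. The 3 groups of 3 with the highest mean percentiles, chr2:77657399-77675272, chr8:33031075-33039812 and chr16:29811870-29816623, held no peak of the other 6 lists anywhere in their span. In these 3 intervals of 17874, 8738 and 4754 bp, binding was called only in AAV_Cebpa, at 3 or 4 peaks per list. Just outside them the other lists did have peaks, the nearest 1581, 1650 and 2413 bases from a member of the respective group.

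The 2 AAV_Cebpa replicates placed the peak of a strong site at nearly the same position. The midpoints were a median of 12 bp apart (quartiles 6 and 22), against 17 bp (8 and 32) at the weaker overexpression-only sites and 10 bp (4 and 19) at sites called in all 8 lists. Within bands of strength the medians for overexpression-only sites were 19 bp below 25, 13 bp from 50 to 60 and 10 bp from 80 upward. Sites called in 1 to 5 other lists had 17, 12 and 9 bp in the same bands. No list had more than 1 peak in any strong site.

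The percentile was higher in replicate 2 at most strong sites, and at a few the difference was large. The largest difference between replicates was at chr19:37030981-37031196, with percentiles of 52.4 (47 tags) and 84.5 (153 tags). At chr15:62442612-62442827 they were 50.4 and 82.1 (45 and 142 tags), and a Trib1_WT replicate 2 peak lay 15 bases from the edge of that site. The 5 sites with the largest differences, 30.0 to 32.1 points, were all higher in replicate 2. The median difference, replicate 2 minus replicate 1, was 11.0 points over all strong sites (quartiles 6.77 and 15.7) and 3.65 points at sites called in all 8 lists. Median percentiles in replicates 1 and 2 were 62.4 and 75.8 at the strong overexpression-only sites. Sites at or above the threshold that exactly 1 other list held had 64.9 and 76.1, and those in 2 other lists 69.6 and 78.7. The higher percentile in replicate 2 was thus not particular to the overexpression-only sites.

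A further view of these sites comes from those that missed the rule by a single list. With percentiles of at least 50 in both AAV_Cebpa lists, 1100 sites (0.97% of all sites) were called in exactly 1 of the other 6. That list was Trib1_LSKO replicate 1 in 489 cases (44.5%) and Trib1_LSKO replicate 2 in 285 (25.9%). It was Trib1_WT in 112 and 67 cases, and AAV_Null in 68 and 79. Trib1_LSKO thus accounted for 774 of the 1100, Trib1_WT for 179 and AAV_Null for 147. Both Trib1_LSKO lists were shorter than both Trib1_WT lists, and the part of list length was not tested. Without a count over all sites, these numbers cannot be read as particular to strong AAV_Cebpa sites.

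The mean was 387 ± 144 sites (SD, n = 2) per Trib1_LSKO library and 89.5 ± 31.8 (SD, n = 2) per Trib1_WT library. The difference was 297.5 sites. Trib1_LSKO was also higher among the AAV_Cebpa sites below the percentile threshold, and the same count over all sites was not made. The difference is given with no test, since these sites were chosen by the percentiles and the presence pattern that the rule uses. It was 215 with lists of equal length and 96 at a percentile of at least 75. Without Trib1_LSKO replicate 1 or 2 it was 1162.5 or 1388.5, because sites held by both Trib1_LSKO lists then count as held by 1. Among the AAV_Cebpa sites below the percentile threshold, 2514 were called in 1 other list. Of these, 703 and 528 were in Trib1_LSKO, 414 and 325 in Trib1_WT and 248 and 296 in AAV_Null, a smaller share for Trib1_LSKO (28.0% and 21.0%).

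**Figure D4:**
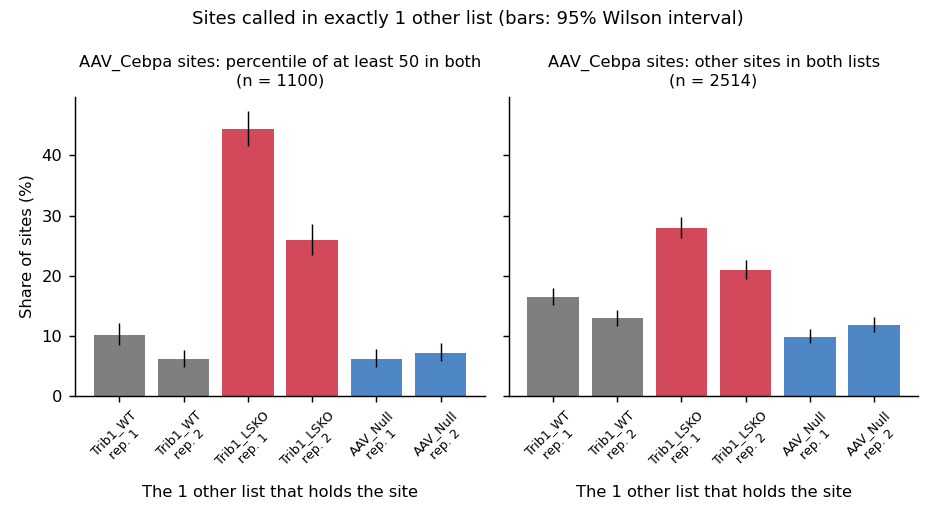
Sites called in both AAV_Cebpa lists and in exactly 1 other list, as the share (y axis, %) held by each of the 6 other libraries (x axis), for the 1100 sites with a percentile of at least 50 in both AAV_Cebpa lists (left) and the 2514 other sites (right), with 95% Wilson intervals. The 2 Trib1_LSKO bars are highest in both panels, at 44.5% and 25.9% on the left and 28.0% and 21.0% on the right.

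In pairs of lists, too, Trib1_LSKO held the most. Of the 1538 strong AAV_Cebpa sites called in exactly 2 other lists, 1036 (67.4%) were in both Trib1_LSKO lists, 36 in both Trib1_WT lists and 67 in both AAV_Null lists. Pairs of a Trib1_WT list with a Trib1_LSKO list held 89, 58, 51 and 39, each more than the Trib1_WT replicate pair. For the 2310 sites below the percentile threshold the 3 replicate pairs held 796 (34.5%), 171 and 203. The 1036 are not among the 2816 strong overexpression-only sites, which by the rule are absent from Trib1_LSKO, and these numbers describe only what the rule left out. Pairs were not counted over all sites, so the 67.4% cannot be read as particular to strong AAV_Cebpa sites.

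The strong overexpression-only sites were spread over all autosomes, and their share on chromosome X was close to that of other strong AAV_Cebpa sites. Chromosome 2 held the most, 222 (7.88%, against 7.29% of all sites), and chromosome 1 held 203 (7.21%, against 7.05%). Chromosome X held 41 (1.46%, 95% Wilson interval 1.08% to 1.97%), chromosome Y none. Of the weaker overexpression-only sites, 496 (5.04%, 4.63% to 5.49%) were on chromosome X, and of the sites called in all 8 lists 503 (2.07%). Of the 26243 sites with a percentile of at least 50 in both AAV_Cebpa lists that 1 or more other lists held, 1.63% were there (1.49% to 1.80%), and of all sites 3.00%. Among autosomes, chromosome 19 held 2.52% of the strong sites and 3.79% of those in all 8 lists, chromosome 11 held 4.19% and 6.04%, and chromosome 8 held 5.54% and 5.21%. These shares are descriptions over sites and were not tested.

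In both kinds of site the share on chromosome X was higher below the percentile of 50 than in the bands from 50 to 80. In overexpression-only sites the share on chromosome X was 6.01% below a percentile of 25, 3.62% from 25 to 50, 1.90% from 50 to 60, 1.23% from 60 to 70 and 0.726% from 70 to 80. Above that, few sites remain: 4 of 258 (1.55%, 95% Wilson interval 0.605% to 3.92%) were on chromosome X from 80 to 90, 1 of 32 from 90 to 95 and 0 of 4 from 95 upward. In sites called in all 8 lists the share was 4.16%, 3.06%, 2.85%, 2.48%, 1.93%, 1.54%, 0.563% and 0.365% over the 8 bands. In every list, sites called in all 8 lists ranked lower on chromosome X than elsewhere, with medians of 53.0 to 65.5 against 71.1 to 78.7.

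**Figure D5:**
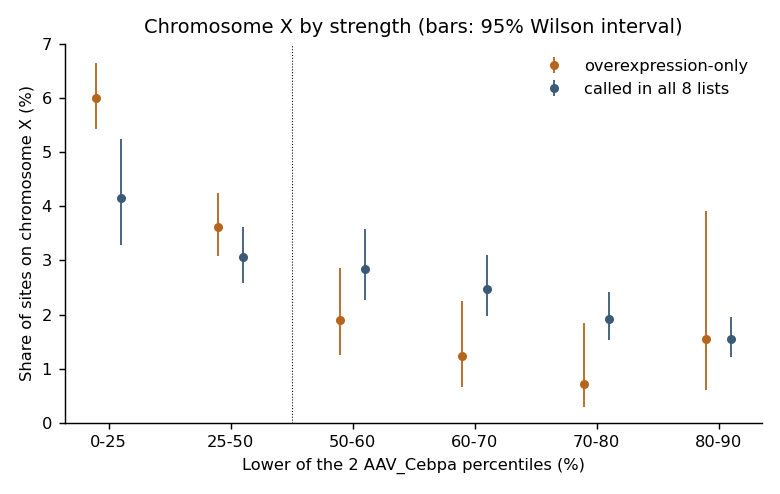
Share of sites on chromosome X (y axis, %) among overexpression-only sites (brown) and sites called in all 8 lists (blue), by the lower of the 2 AAV_Cebpa percentiles (x axis, %), with 95% Wilson intervals. The brown points run from 6.01% down to 0.726% between the first and the fifth band and stand at 1.55%, with a wide interval, in the last one drawn, and the dotted line marks the percentile of 50.

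The experiments differed from each other on the sex chromosomes, which bears on sites defined by absence from lists of both. The Trib1 lists had 9 to 14 peaks on chromosome Y and the 4 lists of the second experiment had 0. Chromosome X held 2.04% to 2.28% of all peaks in the Trib1 lists, 2.40% and 2.46% in AAV_Null and 2.93% and 3.21% in AAV_Cebpa. The gap in median percentile between chromosome X and the rest, over sites called in all 8 lists, was -19.0 ± 0.350 points in the Trib1 libraries and -13.9 ± 0.670 in the others (SD, n = 4 each). That difference of -5.06 points had p = 0.0286 (two-sided exact permutation test over libraries), the smallest that 4 against 4 libraries allow, and was looked for after the chromosome Y counts had been seen. The test pooled libraries of different groups within each experiment, and the data hold no repeat of either experiment. Its p therefore does not measure how far experiments differ in general. Experiment, genotype, vector dose and any difference in sex cannot be told apart here. On autosomes alone the strong overexpression-only sites number 2775.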

How the data were processed

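C/EBPα ChIP-seq of mouse liver was analysed in 8 libraries, 2 per group. The authors deposited 1 peak list per library, with peaks 200 bp wide and a signal value in the last column. Bowtie, HOMER and build mm9 are named per the submitters' processing notes. The sources used here state no version, input, calling threshold or handling of duplicate reads. Peaks were joined into sites at an overlap of 1 bp. A signal was used only as a percentile inside its list, or as tags after division by the list's step (at least 99.87% of values within 0.051 of a whole multiple). Shares have 95% Wilson intervals, which cover counting only. Libraries were compared by exact two-sided permutation tests of differences between groups of libraries. Named sites are the 10 with the highest mean percentile, the 5 with the largest replicate difference, the 5 farthest from other lists, the 5 largest groups within 10 kb and 3 on each side of the threshold. Members, lists and tests were chosen with earlier results of these data known. The neighbours within 200 bp, the sites in 1 or 2 other lists and the chromosome Y counts were added after the data were seen. Motif and gene tests had been planned and were not run, since no sequence or genes of mm9 were used here. The joining, distances and test were tested on simulated data. Software was Python 3.11.15, pandas 2.3.3, SciPy 1.17.1 and statsmodels 0.14.6.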

Additional observations from a re-analysis of the deposited data

How the results depend on the processing

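The number of strong overexpression-only sites, 2816, was 2868 and 2657 with windows of 100 and 400 bp. It was 2816 with tags scaled to the shallowest library, a setting in which no site could drop out. The smallest scaled counts were 24.4 and 27.3 tags, and the weakest listed peak there had 8. It was 517 with a percentile of at least 75, 1541 with equal list lengths, and 2884 to 6683 with a library left out. The share with another strong site within 10 kb was 12.2% with no other peak within 1 kb, 4.64% at a percentile of 75, 11.6% with equal list lengths, and ran from 14.2% to 23.4% with a library left out, the highest without AAV_Cebpa replicate 1. The median distance to sites called in all lists was 14972.5, 8921 and 12065 bases under the first 3 of these settings. At a percentile of 75 the midpoint offset was 11 bp, and 10.3% of sites had another list's peak within 200 bp. For these 13 values the cause was not tested beyond the smaller or larger number of sites each setting keeps. The other 96 of 109 values stayed within their interval, within 1.5 times the count, or in their direction, which in designs too small to pass a test says nothing of stability. They include the values under the tag scaling and the replicate block, which could not change. The replicate block, which the labels support only by a shared number, leaves a difference of means unchanged by construction. The Trib1_LSKO minus Trib1_WT difference in sites with a peak within 1 kb thus stayed 0.977 points (exact sign-flip p = 0.5, the smallest possible). That in sites called in 1 other list stayed 297.5. Planned motif alternatives were not run. Depth and list length limit every statement of absence: a site not listed may still be bound.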
